A study of Homo sapiens with 6 samples.

Results

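The 10 genes described here encode the cadherins CDH1, CDH3 and CDH17, the desmosome proteins DSG2, DSC2, DSP, JUP, PKP2 and PKP3, and the adhesion protein EPCAM. They were taken by symbol from the 22496 gene symbols of the 6 libraries, and all 10 were listed in every library. The cells are LoVo, an established human colon adenocarcinoma line. The libraries, made from poly-A RNA by a method that marks the strand, fall into 3 of the genotype labelled SHARPIN knockout and 3 of the genotype labelled non-target, the control, with no treatment named for either. The comparison addresses what loss of SHARPIN, which helps to build linear ubiquitin chains, does to gene expression in LoVo. The labels state neither whether the knockout cells are 1 clone or a pool nor whether replicates are separate cultures. The p-values below thus rest on the spread among these 6 libraries, part or all of which may be technical.

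Classical cadherins such as E-cadherin (CDH1) and P-cadherin (CDH3) join neighbouring epithelial cells and are linked to actin through beta-catenin and alpha-catenin. CDH17, liver-intestine cadherin, has a short cytoplasmic tail that does not bind catenins and is a marker of intestinal epithelium. Desmosomes join cells to keratin filaments: the desmosomal cadherins DSG2 and DSC2 span the membrane, plakoglobin (JUP) and the plakophilins (PKP2, PKP3) bind their tails, and desmoplakin (DSP) reaches the filaments. DSG2, DSC2 and PKP2 are the forms of simple epithelia such as the gut. EPCAM is a surface glycoprotein of most carcinomas that binds claudin-7.

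Each library listed 19068 to 20158 symbols with FPKM, a level per kilobase of transcript relative to all fragments mapped in that library. A gene can thus shift when others change, and the files give no fragment counts, so the depth behind a value is unknown. SHARPIN itself stood at 7.549, 11.857 and 18.046 FPKM in knockout replicates 1, 2 and 3, against 11.9, 13.925 and 12.925 FPKM in non-target replicates 1, 2 and 3, so its RNA level does not check the labels, and groups are named as labelled. On the second principal component both replicate 1 libraries had positive scores and the others negative ones, with knockout replicate 3 the lowest. Knockout replicate 3 had the highest sum of FPKM, 522919 against 416852 to 431264 in the others. In that library, genes with transcripts of 6000 bases or more had a median log2 difference of -0.36 from the non-target mean and those under 2000 bases one of 0.38, whereas in the other 5 libraries all such medians lay between -0.07 and 0.10. All 7 colon epithelium markers reached 1 FPKM in at least 1 library, and their sum, nearly all KRT8 and KRT18, ran from 4122.3 to 8746.3 FPKM in knockout and from 3751.0 to 4919.7 FPKM in non-target libraries. Of 5 keratinocyte markers, TP63 was at 0 in all knockout libraries, and the sum ran from 90.8 to 122.7 FPKM in knockout and from 36.3 to 43 FPKM in non-target libraries, most of it KRT5 in knockout. The 5 fibroblast markers summed to 0.2 to 0.735 FPKM in knockout and 7.7 to 18.4 FPKM in non-target libraries. LUM made up most of that sum in non-target replicates 2 and 3 and averaged 0.245 FPKM in knockout and 6.67 FPKM in non-target libraries, while COL1A1 and COL1A2 made up most of it in non-target replicate 1, at 6.599 and 6.121 FPKM. The 3 endothelial and 2 leukocyte markers found stayed below 1 FPKM. The part of other cell types in the results was not tested, and in bulk RNA fewer cells of a type and less RNA per cell cannot be told apart.

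CDH17 was the 1 gene of the 10 that passed the test, and it was lower in knockout. Its level was 11.137, 3.249 and 2.948 FPKM in knockout replicates 1, 2 and 3, against 68.859, 53.94 and 49.033 FPKM in non-target replicates 1, 2 and 3. The groups did not overlap, and in each group replicate 1 was the highest. The mean was 5.78 ± 4.64 FPKM in knockout and 57.3 ± 10.3 FPKM in non-target libraries (SD, n = 3 each), so the knockout mean was 10.1% of the non-target mean. On log2(FPKM + 1), the scale of all fold changes here, knockout minus non-target came to -3.29 ± 0.38 (SE; limma, adjusted p = 5.24e-04). Among the 10 genes 1 fell and 0 rose, or 10%, where 5.93% of the 13092 tested genes fell and 6.26% rose, or 12.2% together (limma, adjusted p below 0.05). The median log2 fold change was -0.13 over the 10 and 0.02 over all tested genes. CDH17 passed in all 16 other settings, with log2 fold changes between -3.82 and -3.01 and adjusted p up to 0.0113. The other colon epithelium markers differed in direction. Villin (VIL1) stood at 0.354 to 0.718 FPKM in knockout and 2.098 to 2.842 FPKM in non-target libraries, whereas KRT20, a keratin of differentiated gut epithelium, rose to 17.1 ± 9.71 FPKM in knockout, against 3.19 ± 3.3 FPKM in non-target libraries (limma, adjusted p = 0.0168). CDX2, KRT8 and KRT18 had higher means in knockout but overlapped and did not pass, as did EPCAM with a lower mean. CDH17 spans positions 95139390 to 95229531 of chromosome 8 in GRCh37, on the minus strand.

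E-cadherin and P-cadherin did not pass. CDH1 (chromosome 16, 68771195 to 68869440) stood at 57.906, 36.41 and 26.618 FPKM in knockout replicates 1, 2 and 3, against 41.816, 28.801 and 27.048 FPKM in non-target replicates 1, 2 and 3. The groups overlapped, and replicate 1 was again highest in each. The mean was 40.3 ± 16 FPKM in knockout and 32.6 ± 8.07 FPKM in non-target libraries, and the log2 fold change of 0.26 had a 95% interval from -0.38 to 0.89 (limma, adjusted p = 0.629). Without knockout replicate 1 the log2 fold change of CDH1 was -0.04.

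CDH3 lies just upstream of CDH1 on the same strand, with 9823 bases between the genes. Its values were 24.248, 15.422 and 15.176 FPKM in knockout replicates 1, 2 and 3, and 19.645, 13.427 and 14.904 FPKM in non-target replicates 1, 2 and 3. The groups overlapped here too (log2 fold change 0.17, 95% interval -0.33 to 0.67; limma, adjusted p = 0.696). The 95% intervals of CDH1 and CDH3 hold 0 and do not reach 1 on the log2 scale in either direction.

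The makeup of the summed FPKM of these 3 cadherins differed between the groups. CDH17 was 11.9%, 5.9% and 6.59% of the sum in knockout replicates 1, 2 and 3, against 52.8%, 56.1% and 53.9% in non-target replicates 1, 2 and 3. CDH1 made up 62.6 ± 3.33% of it in knockout and 30.6 ± 1.3% in non-target libraries (SD, n = 3 each), and CDH3 29.3 ± 4.12% and 15.1 ± 1.21%. The most abundant of the 3 was thus CDH1 in every knockout library and CDH17 in every non-target library. The sum itself was 64.4 ± 25.6 FPKM in knockout and 105.8 ± 21.4 FPKM in non-target libraries.

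**Figure D1:**
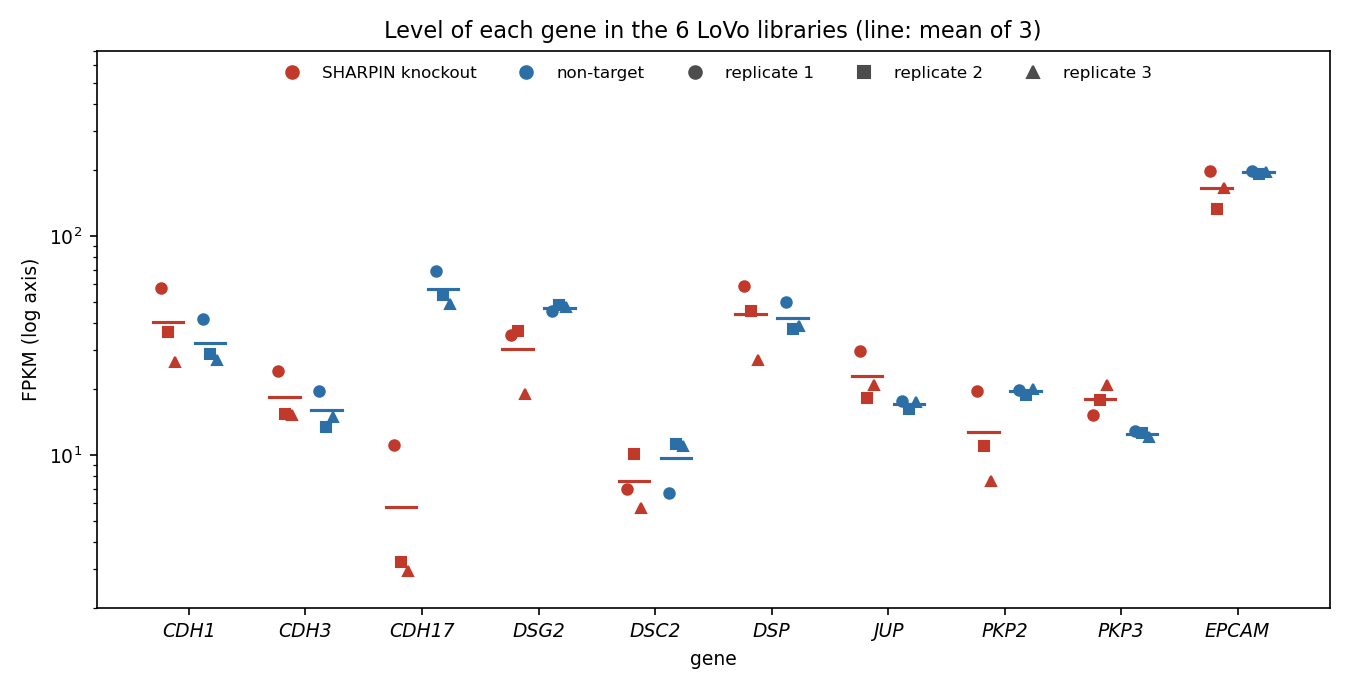
FPKM on a log axis for each gene, with knockout libraries in red on the left and non-target libraries in blue on the right. CDH17 lies at 2.948 to 11.137 FPKM in knockout and 49.033 to 68.859 FPKM in non-target libraries; marker shapes give the replicate and lines the mean of 3.

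The repressors ZEB1 and SNAI1 recognise the E-box letters CACCTG, so the promoters of the desmosome genes were read for it. RefSeq promoter windows (GRCh38.p14, 250 bases before to 50 after a start) were matched for 4 of the 10 genes, DSG2, DSC2, DSP and JUP, in 6 windows. No window was found for CDH1, CDH3, CDH17, PKP2, PKP3 or EPCAM. The E-box, on either strand, stood in 4 of the 6, against 20.6% of 35116 windows of the same length. That share was not matched for G and C content, and whether desmosome genes hold the E-box more often was not tested. Among desmosome genes outside the 10, the windows of DSG1 and CDSN held it and those of DSG3, DSC1, DSC3, PKP1 and PERP did not. For DSG4, EVPL and PPL no window was found. The E-box window of each gene, with the E-box (CAGGTG where it lies on the other strand) in capitals, is printed here 5′ to 3′ on the gene's strand, so that the letters can be set beside the levels that follow.

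DSG2, chr18:31497927-31498226, plus strand: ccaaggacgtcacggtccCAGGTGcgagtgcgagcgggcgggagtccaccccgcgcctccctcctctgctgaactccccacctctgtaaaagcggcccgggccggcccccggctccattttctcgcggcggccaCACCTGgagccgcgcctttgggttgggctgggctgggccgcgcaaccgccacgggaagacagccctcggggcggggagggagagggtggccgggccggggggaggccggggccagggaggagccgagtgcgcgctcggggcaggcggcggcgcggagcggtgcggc

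DSP, chr6:7541421-7541720, plus strand: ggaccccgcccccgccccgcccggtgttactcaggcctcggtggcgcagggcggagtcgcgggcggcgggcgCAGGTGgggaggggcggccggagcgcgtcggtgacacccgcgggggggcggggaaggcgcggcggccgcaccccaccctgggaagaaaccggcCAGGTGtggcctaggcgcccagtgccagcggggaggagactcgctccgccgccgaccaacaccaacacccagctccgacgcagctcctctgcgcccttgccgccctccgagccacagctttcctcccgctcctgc

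JUP, chr17:41785927-41786226, minus strand: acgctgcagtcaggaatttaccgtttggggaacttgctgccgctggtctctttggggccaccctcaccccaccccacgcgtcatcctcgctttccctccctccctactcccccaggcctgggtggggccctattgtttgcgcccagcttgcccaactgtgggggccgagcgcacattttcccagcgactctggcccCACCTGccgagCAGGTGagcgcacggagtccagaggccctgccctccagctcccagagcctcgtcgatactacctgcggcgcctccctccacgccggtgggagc

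DSC2, chr18:31102372-31102671, minus strand: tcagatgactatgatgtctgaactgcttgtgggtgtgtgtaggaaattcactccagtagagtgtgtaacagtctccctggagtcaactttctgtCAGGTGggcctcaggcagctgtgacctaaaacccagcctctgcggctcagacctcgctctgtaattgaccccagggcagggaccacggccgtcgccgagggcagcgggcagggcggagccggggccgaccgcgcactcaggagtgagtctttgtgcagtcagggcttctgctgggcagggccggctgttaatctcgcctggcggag

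The E-box began at -232 and -116 from the start in DSG2, at -178 and -85 in DSP, at -54 and -43 in the JUP window shown, and at -156 in the DSC2 window shown. The other start of JUP and the other start of DSC2 held 0. None of the 6 windows held ACCGGT, letters of the grainyhead site (1.83% of all windows), or TATAAA (11.5%). GGGCGG, a GC box, stood 8 times in DSP and 2 times in DSG2 (45% of all windows hold it), and 77% of DSP bases and 76.7% of DSG2 bases were G or C. A match describes the letters in a window and not a bound site.

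The desmosomal cadherins had lower means in knockout, but neither passed. DSG2 (chromosome 18, 29078140 to 29128971) stood at 35.314, 36.559 and 18.976 FPKM in knockout replicates 1, 2 and 3, against 45.332, 48.178 and 47.161 FPKM in non-target replicates 1, 2 and 3. Every knockout library was below every non-target library, and knockout replicate 3 was the lowest. Of the 10 genes, 2 had all knockout values lower and 2 had all knockout values higher, where 15.7% and 16.5% of the tested genes did, or 32.1% in either direction. The fold change of DSG2 came to -0.67 ± 0.24 on the log2 scale (SE, limma, adjusted p = 0.112), and with a replicate block it passed (limma, adjusted p = 7.67e-04). Its same-numbered pairs differed by -0.35, -0.39 and -1.27. For most genes the blocked fit takes the spread from genes of similar level, so its p-value does not measure the spread of these pairs alone. With that block 1 of the 10 genes rose and 3 fell, where 25.3% of all tested genes passed. Without knockout replicate 3 the fold change of DSG2 was -0.37, and with the transcript length trend of each library removed it was -0.61 (limma, adjusted p = 0.0779). Antisense transcript DSG2-AS1 overlaps DSG2 exons and had 3.39 ± 1.49 FPKM in knockout and 6.27 ± 0.361 FPKM in non-target libraries. The sources used here do not state whether the counting used strand, so fragments of the 2 genes cannot be told apart. The same holds for CDH1, CDH3 and DSP, each with an exon overlap on the other strand, and DSC2 and PKP2 share exon bases with another gene on their own strand.

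DSC2 lies in the same cluster on the minus strand, at 28638806 to 28682485, with 395654 bases to DSG2. It stood at 6.966, 10.063 and 5.703 FPKM in knockout replicates 1, 2 and 3, against 6.713, 11.166 and 11.015 FPKM in non-target replicates 1, 2 and 3. The groups overlapped. Non-target replicate 1 lay between knockout replicates 3 and 1, and knockout replicate 2 lay near non-target replicates 2 and 3. DSC2 did not pass (log2 fold change -0.31, 95% interval -0.87 to 0.24, limma, adjusted p = 0.486).

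The plaque proteins lay on both sides of the non-target level, and none passed. DSP, desmoplakin (chromosome 6, 7541571 to 7586947), had 58.912, 45.577 and 27.074 FPKM in knockout replicates 1, 2 and 3, and 49.783, 37.581 and 38.86 FPKM in non-target replicates 1, 2 and 3. Knockout libraries held both the highest and the lowest value, with means of 43.9 ± 16 FPKM in knockout and 42.1 ± 6.71 FPKM in non-target libraries (log2 fold change 0.00, 95% interval -0.60 to 0.60; limma, adjusted p = 0.999). The sign of DSP turned under other scaling, with log2 fold changes of -0.09 in TPM and -0.02 with median-ratio scaling. With a canonical transcript of 9697 bases, DSP was lowest in knockout replicate 3, the library in which long transcripts were low; the part of length was not tested beyond removing its trend, which gave 0.14.

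Plakoglobin, JUP (chromosome 17, 39910856 to 39943183), had 29.841, 18.075 and 20.847 FPKM in knockout replicates 1, 2 and 3, against 17.534, 16.266 and 17.328 FPKM in non-target replicates 1, 2 and 3. All knockout values were above all non-target values, by the widest margin in replicate 1. The log2 fold change of 0.38 ± 0.20 (SE) did not pass (limma, adjusted p = 0.275) and was 0.18 without knockout replicate 1.

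The 2 plakophilins lay on opposite sides. PKP2 (chromosome 12, 32943679 to 33049732) stood at 19.491, 10.946 and 7.566 FPKM in knockout replicates 1, 2 and 3, against 19.843, 18.826 and 19.901 FPKM in non-target replicates 1, 2 and 3. Knockout replicate 1 lay at the non-target level and the other 2 knockout libraries well below it. PKP2 differed by -0.68 ± 0.28 on the log2 scale (SE; limma, adjusted p = 0.161). It was -1.02 without knockout replicate 1 (adjusted p = 0.00684), -1.01 without both replicate 1 libraries (adjusted p = 0.0185), -0.39 without knockout replicate 3 (adjusted p = 0.367), and adjusted p was 7.99e-04 with a replicate block. The same-numbered pairs of PKP2 differed by -0.02, -0.73 and -1.29. As for DSG2, the p-value of the blocked fit does not measure the spread of these pairs alone.

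PKP3 (chromosome 11, 392614 to 404908) had 15.226, 17.753 and 20.743 FPKM in knockout replicates 1, 2 and 3, against 12.778, 12.536 and 12.114 FPKM in non-target replicates 1, 2 and 3. Every knockout library was above every non-target library, and the non-target libraries were close together. The log2 fold change of 0.48 ± 0.17 (SE) did not pass (limma, adjusted p = 0.0992). It passed with a replicate block (adjusted p = 0.0285), without knockout replicate 1 (0.0306), without both replicate 1 libraries (0.0312) and with the length trend removed (0.0466), and adjusted p reached 0.353 without non-target replicate 3. Of PKP2 and PKP3 together, PKP3 made up 43.9%, 61.9% and 73.3% of the FPKM in knockout replicates 1, 2 and 3, and 39.2%, 40% and 37.8% in non-target replicates 1, 2 and 3.

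EPCAM was the most abundant of the 10 in both groups and did not pass. It stood at 197.286, 132.459 and 164.735 FPKM in knockout replicates 1, 2 and 3, against 197.516, 192.048 and 194.936 FPKM in non-target replicates 1, 2 and 3. Knockout replicate 1 lay at the non-target level and the other 2 knockout libraries below it. The mean was 164.8 ± 32.4 FPKM in knockout and 194.8 ± 2.74 FPKM in non-target libraries, or 84.6% (log2 fold change -0.26, 95% interval -0.67 to 0.15; limma, adjusted p = 0.426). EPCAM lies on chromosome 2 at 47572297 to 47614740. Within knockout libraries its mean lay at percentile 97.6 of the tested genes.

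**Figure D2:**
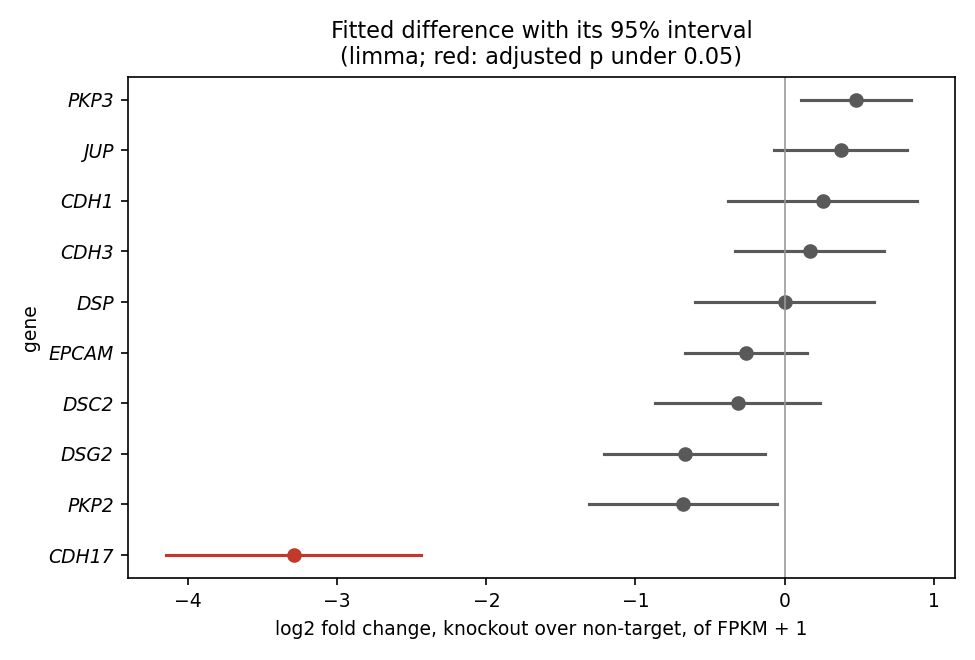
Log2 fold change of FPKM + 1, knockout over non-target, for each of the 10 genes with its 95% interval from limma. CDH17, at -3.29, is the 1 gene with adjusted p below 0.05; the intervals of PKP3, DSG2 and PKP2 do not hold 0 but the genes do not pass after adjustment over all genes.

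The ratio of the highest to the lowest library was larger in knockout for all 10 genes. Over all tested genes the knockout libraries also lay further apart on the second principal component. Their scores were 36.27, -9.992 and -28.13 in replicates 1, 2 and 3, against 20.56, -9.666 and -9.039 in non-target replicates 1, 2 and 3. In non-target libraries DSG2, JUP, PKP2, PKP3 and EPCAM each varied by less than 1.1 times from lowest to highest, while in knockout the ratio was 1.93, 1.65, 2.58, 1.36 and 1.49. In both groups replicate 1 was the highest library for 6 of the 10, CDH1, CDH3, CDH17, DSP, JUP and EPCAM. In same-numbered libraries the knockout value of JUP, PKP3 and CDH3 was higher in 3 of 3 pairs, and that of CDH17, DSG2, PKP2 and EPCAM lower in 3 of 3. For JUP, PKP3, CDH17 and DSG2 this follows from groups that do not overlap. Differences in log2(FPKM + 1) were close to 0 for EPCAM (-0.00) and PKP2 (-0.02) in replicate 1 and for CDH3 (0.02) in replicate 3. Shares of all tested genes were not computed for the counts in this paragraph, so none is read as particular to the 10.

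**Figure D3:**
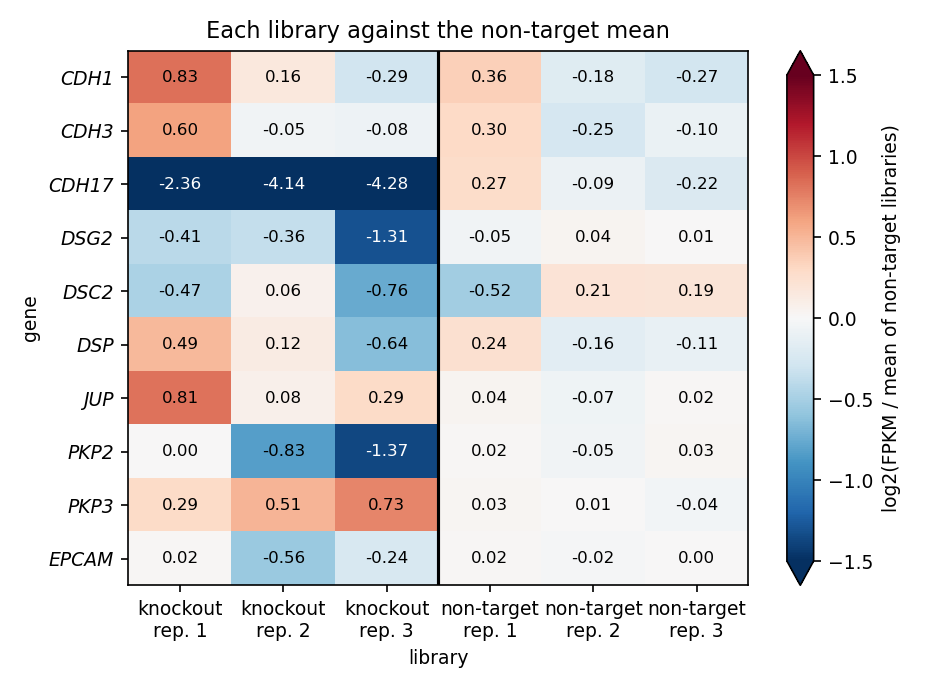
Log2 of FPKM over the mean of the 3 non-target libraries, with knockout libraries in the left 3 columns and non-target libraries in the right 3, and colours saturating at 1.5. CDH17 lies between -4.28 and -2.36 in knockout, PKP2 and DSG2 are lowest in knockout replicate 3, and CDH1, CDH3, DSP and JUP are highest in knockout replicate 1.

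By mean FPKM the order in knockout libraries was EPCAM, DSP, CDH1, DSG2, JUP, CDH3, PKP3, PKP2, DSC2 and CDH17. Only EPCAM stood clear of its neighbour there, and every other pair of neighbours overlapped. In non-target libraries it was EPCAM, CDH17, DSG2, DSP, CDH1, PKP2, JUP, CDH3, PKP3 and DSC2. There the neighbours DSG2 and DSP, DSP and CDH1, and JUP and CDH3 overlapped, and the other 6 pairs of neighbours did not. CDH17 thus stood in the last place in knockout libraries, against the second place in non-target libraries.

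A ratio of 2 genes in the same library does not depend on how the library is scaled. Of 5 such log2 ratios, CDH17 over CDH1 was -3.01 ± 0.57 in knockout and 0.83 ± 0.10 in non-target libraries, and PKP3 over PKP2 was 0.60 ± 0.91 and -0.65 ± 0.07 (SD, n = 3 each). These 2 ratios did not overlap between groups (exact permutation test, two-sided, p = 0.1 each, the smallest that 3 against 3 allows, and 0.25 adjusted over 5). A length trend within a library does not cancel where transcripts differ in length, as PKP3 (2817 bases) and PKP2 (4229 bases) do. PKP3 over PKP2 was highest in knockout replicate 3, at 1.46, and without that library the group difference was 0.82 rather than 1.24. The part of length in the ratios was not tested. CDH3 over CDH1 was -1.10 ± 0.25 in knockout and -1.02 ± 0.14 in non-target libraries (exact p = 0.6), a difference of -0.09 that is smaller than either SD. DSC2 over DSG2 was -1.98 ± 0.32 and -2.32 ± 0.38 (exact p = 0.3), and plakoglobin over its relative beta-catenin, JUP over CTNNB1, was -1.55 ± 0.43 and -1.83 ± 0.05 (exact p = 0.4).

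**Figure D4:**
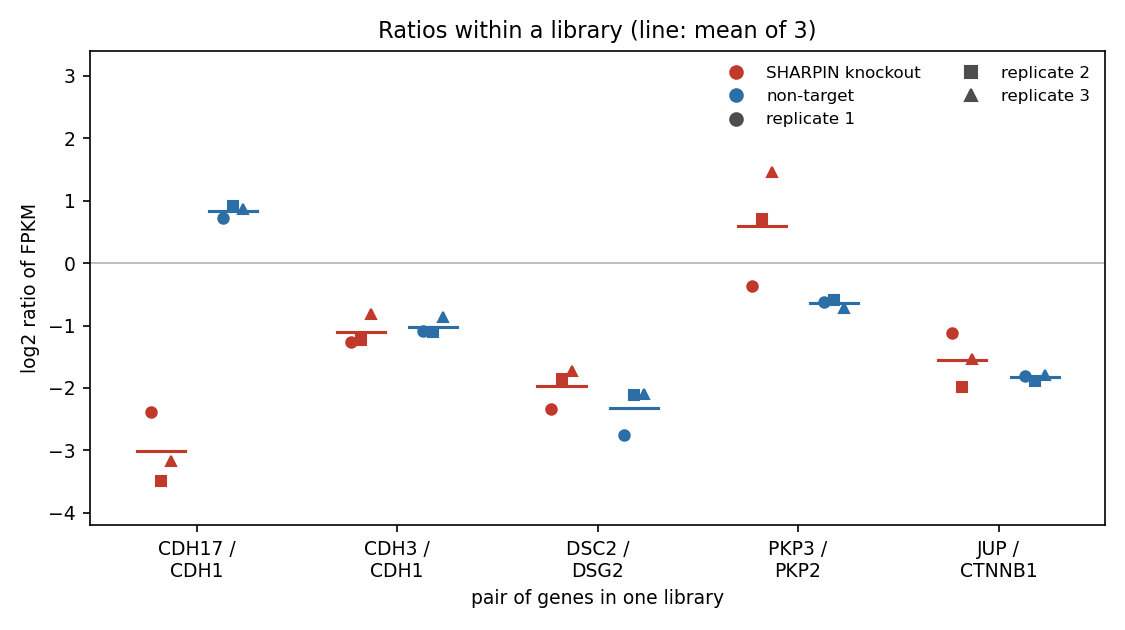
Log2 ratio of FPKM of 2 genes in the same library for 5 pairs, with knockout libraries in red on the left and non-target libraries in blue on the right, and lines for the mean of 3. CDH17 over CDH1 lies between -3.49 and -2.38 in knockout and between 0.72 and 0.91 in non-target libraries, while CDH3 over CDH1 overlaps.

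Desmosome genes outside the 10 included some that fell and some that rose. The list held the desmosomal cadherins, plakophilin and plakins known best from stratified epithelia, and of 6 tested 2 rose, 3 fell and 1 did not pass, or 83.3% past the threshold, against 12.2% of all tested genes. The median log2 fold change was -0.87, against 0.02 over all genes. DSG3, the desmoglein of deep epidermis and mucosa, stood at 1.095, 1.358 and 0.537 FPKM in knockout replicates 1, 2 and 3, against 12.392, 19.32 and 19.041 FPKM in non-target replicates 1, 2 and 3 (log2 fold change -3.16 ± 0.23, SE; limma, adjusted p = 6.00e-05). The groups did not overlap, and DSG3 passed in all other settings. DSG3 and DSC3 are also among the keratinocyte markers, of which KRT5 and KRT14 rose. Envoplakin (EVPL), a plakin of the cornified envelope, fell to 5.94 FPKM in knockout, against 16.1 FPKM in non-target libraries. Its partner periplakin (PPL) went the other way, with means of 9.6 FPKM in knockout and 3.41 FPKM in non-target libraries (log2 fold changes -1.28 and 1.27; limma, adjusted p = 0.0031 and 0.00466). DSG4 fell by 0.96 and PERP, a p53 target and desmosome protein, rose by 0.60 on the log2 scale. DSG4 did not pass without knockout replicate 1 or 3 or non-target replicate 2 or 3 (limma, adjusted p up to 0.105). PERP did not pass in TPM (0.0554) or without knockout replicate 2 or any 1 non-target library (up to 0.19). The desmocollin DSC3, with 5.77 FPKM in knockout and 10.2 FPKM in non-target libraries, passed with a replicate block, which gave 2 that rose and 4 that fell. The remaining 4, DSG1, DSC1, PKP1 and CDSN, were below the filter of 1 FPKM in 3 libraries.

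The partners of classical cadherins passed about as often as other genes. Of 15 tested genes 2 rose, 0 fell and 13 did not pass, or 13.3% past the threshold, near the 12.2% of all tested genes, with a median log2 fold change of -0.16. Beta-catenin (CTNNB1) stood at 65.045, 71.325 and 60.765 FPKM in knockout replicates 1, 2 and 3, and 61.494, 60.322 and 60.071 FPKM in non-target replicates 1, 2 and 3 (limma, adjusted p = 0.704). Alpha-catenin (CTNNA1) averaged 116.8 FPKM in knockout and 128.6 FPKM in non-target libraries (adjusted p = 0.653). The genes that rose were CTNNAL1, an alpha-catenin relative, with 83.277, 46.958 and 52.414 FPKM in knockout replicates 1, 2 and 3, against 26.484, 11.452 and 12.573 FPKM in non-target replicates 1, 2 and 3 (log2 fold change 1.85; limma, adjusted p = 0.00464), and ARVCF, a p120-catenin relative (0.79; limma, adjusted p = 0.0182). CTNNAL1 still passed with any 1 library left out, whereas ARVCF was lost without knockout replicate 3 or any 1 non-target library (adjusted p up to 0.102). With a replicate block 4 rose and 1 fell (25.3% of all genes passed with it).

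Other cadherin superfamily genes were mostly low, with 27 of 37 below the filter. Those 27 were not tested, so the counts that follow do not cover genes that were low in knockout and near 1 FPKM in non-target libraries. CDH9, CDH10 and CDH12 averaged 0.01, 0.0487 and 0.1 FPKM in knockout and 0.903, 0.649 and 0.917 FPKM in non-target libraries. CDH15 went the other way, at 0.153 and 0.0623 FPKM. Of the 10 above the filter 2 rose, 0 fell and 8 did not pass, or 20%, against 12.2% of all tested genes. CLSTN2, 1 of the 2, was below 1 FPKM in every non-target library and thus passed the filter through knockout alone, and without it 1 of 9 rose, or 11.1%. CDH11, a cadherin of mesenchymal cells, averaged 1.97 FPKM in knockout and 0.749 FPKM in non-target libraries, and CLSTN2, a calsyntenin, 2.65 and 0.403 FPKM. Both are low. CDH11 did not pass without knockout replicate 2 or 3 or non-target replicate 2 or 3, and CLSTN2 without knockout replicate 2 or non-target replicate 2 or 3 (limma, adjusted p up to 0.113). The abundant FAT1, an atypical cadherin, had 85.252, 99.026 and 39.496 FPKM in knockout replicates 1, 2 and 3, against 82.958, 99.67 and 102.321 FPKM in non-target replicates 1, 2 and 3. It was low in knockout replicate 3 alone. The calsyntenin CLSTN1, the other abundant member, had a log2 fold change of 0.00. With a replicate block 3 rose and 2 fell, where 25.3% of all genes passed. CLSTN2 is among these 3, so the count is not like for like with that share.

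Of 16 tested EPCAM partners and proteases, 2 rose, 1 fell and 13 did not pass, or 18.8%, against 12.2% of all tested genes, with a median log2 fold change of 0.03. TSPAN8, a tetraspanin found in complexes with EPCAM, stood at 123.148, 68.56 and 92.459 FPKM in knockout replicates 1, 2 and 3, against 513.603, 487.884 and 509.848 FPKM in non-target replicates 1, 2 and 3 (log2 fold change -2.44; limma, adjusted p = 1.33e-04). CD44, an adhesion receptor, and SPINT1, an inhibitor of the protease matriptase, rose by 1.49 and 0.71 on the log2 scale, and SPINT1 was lost without any 1 non-target library (limma, adjusted p up to 0.115). Claudin-7 (CLDN7), which binds EPCAM directly, had 92.989, 52.422 and 72.145 FPKM in knockout replicates 1, 2 and 3, against 99.875, 107.674 and 109.428 FPKM in non-target replicates 1, 2 and 3. Its groups did not overlap, but it did not pass (log2 fold change -0.57; limma, adjusted p = 0.123). The abundant tetraspanin CD9 averaged 331.0 FPKM in knockout and 239.2 FPKM in non-target libraries (adjusted p = 0.193). With a replicate block 4 rose, CD9 among them, and 2 fell, TSPAN8 and CLDN7, against 25.3% of all genes.

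Among transcription factors known from epithelia and intestine, 15 were tested, of which 1 rose, 8 fell and 6 did not pass. Of the 8, 3 (GRHL2, OVOL1 and CDX1) were below 1 FPKM in every knockout library and passed the filter through the non-target group alone, so they had to differ. Of the other 12, 1 rose and 5 fell, or 50%, with a median log2 fold change of -0.68, where 10.2% of the 12734 genes left by the same rule passed. With a replicate block 1 of the 15 rose and 11 fell, where 25.3% of all genes passed. GRHL2, OVOL1 and CDX1 are among these 11, so the count is not like for like with that share. HNF4A, a factor of intestinal differentiation, stood at 4.791, 3.589 and 3.151 FPKM in knockout replicates 1, 2 and 3, against 23.45, 20.497 and 22.099 FPKM in non-target replicates 1, 2 and 3 (log2 fold change -2.26; limma, adjusted p = 7.75e-05). The groups did not overlap. CDX2, known to activate CDH17, averaged 21.4 FPKM in knockout and 18.8 FPKM in non-target libraries and did not pass (adjusted p = 0.587). GRHL2, a grainyhead factor that sustains CDH1 in epithelia, averaged 0.448 FPKM in knockout and 2.96 FPKM in non-target libraries. KLF4 rose by 1.53 on the log2 scale (limma, adjusted p = 1.93e-04). ELF3, an epithelial ETS factor, fell to 20.5 FPKM in knockout, against 41.8 FPKM in non-target libraries (adjusted p = 0.00269).

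Of 4 tested repressors of junction genes, 1 rose, 1 fell and 2 did not pass, or 50%, against 12.2% of all tested genes. A further 7 of the 11 listed were below the filter. ZEB1 stood at 2.319, 1.309 and 0.743 FPKM in knockout replicates 1, 2 and 3, against 3.299, 3.213 and 3.804 FPKM in non-target replicates 1, 2 and 3. TCF4 averaged 9.66 FPKM in knockout and 2.29 FPKM in non-target libraries (log2 fold changes -0.90 and 1.73; limma, adjusted p = 0.0344 and 0.00718). ZEB1 did not pass in TPM (0.0577) or without any 1 library other than knockout replicate 1 (adjusted p up to 0.112), and TCF4 without knockout replicate 2 (0.0535). SNAI1 averaged 5.98 FPKM in knockout and 4.08 FPKM in non-target libraries, with every knockout library higher, and did not pass (adjusted p = 0.146). TCF3 averaged 38.3 FPKM in knockout and 36.0 FPKM in non-target libraries (adjusted p = 0.766). The E-box windows of DSG2, DSP, JUP and DSC2 shown above belong to genes with log2 fold changes of -0.67, 0.00, 0.38 and -0.31, none past the threshold.

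**Figure D5:**
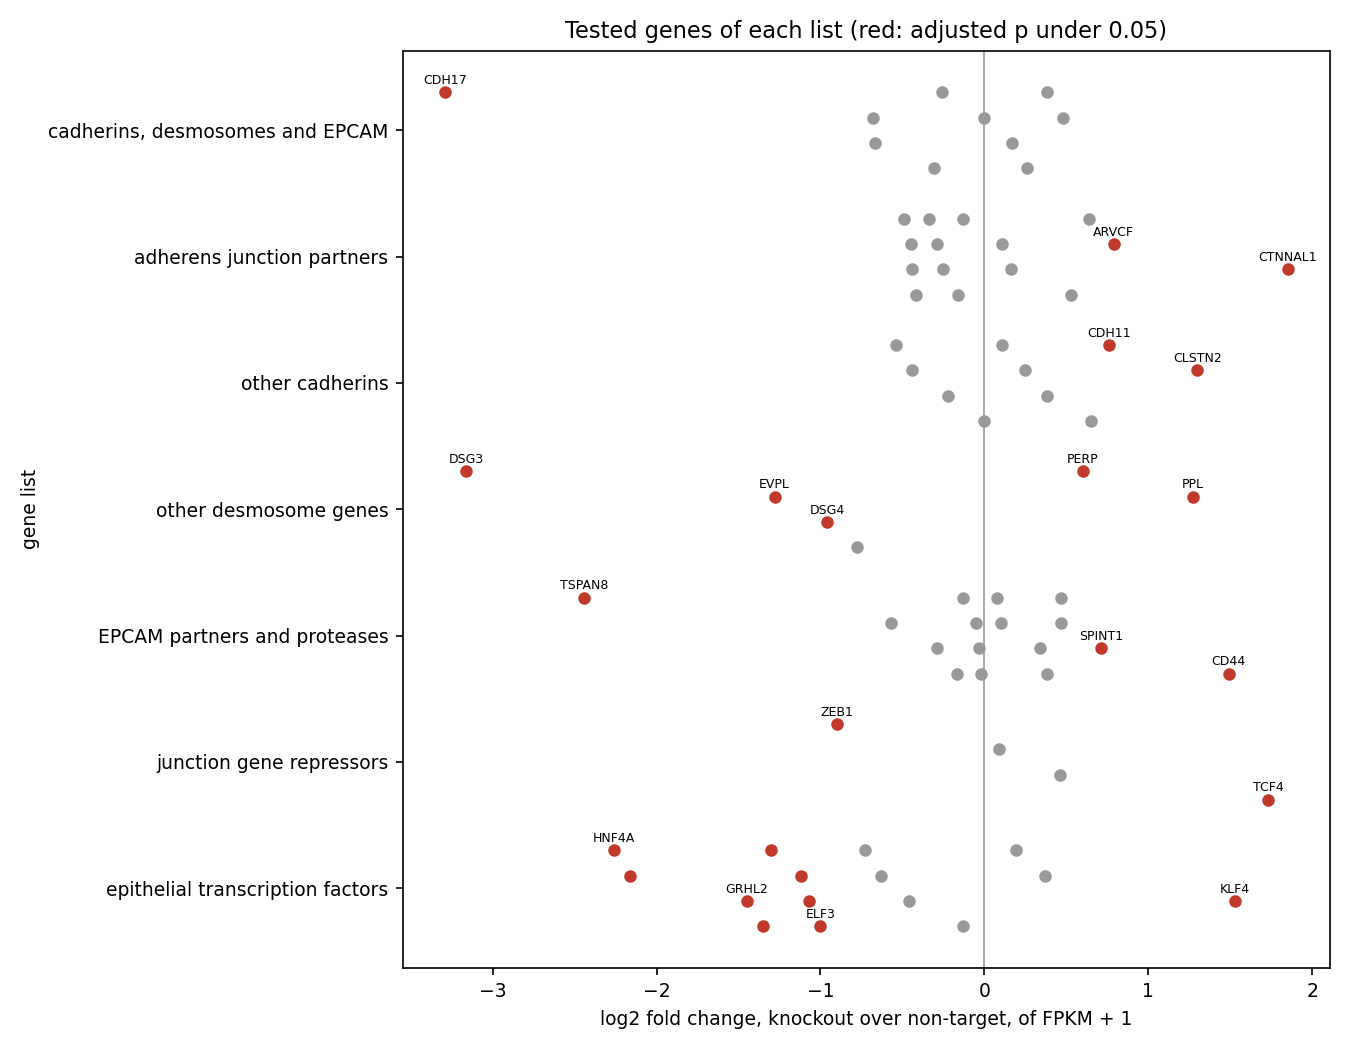
Log2 fold change of FPKM + 1, knockout over non-target, of each tested gene in 7 lists. Red points have adjusted p below 0.05, and those named in the text carry their symbol, except OVOL1 and CDX1. The vertical spread within a list has no meaning. Apart from CDH17, the 10 genes lie between -0.68 and 0.48, while DSG3, TSPAN8 and HNF4A lie below -2.

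Among 8073 genes with a mean of at least 5 FPKM, leaving out symbols of unnamed loci, small RNA and antisense RNA, those whose log2(FPKM + 1) followed CDH17 most closely over the 6 libraries were MYB, GCNT3 and SLC7A7, with Pearson r of 0.9995, 0.9975 and 0.9971, as a description of 6 libraries that form 2 groups. MYB, a transcription factor of intestinal crypts, stood at 5.914, 2.198 and 1.885 FPKM in knockout replicates 1, 2 and 3, against 25.889, 21.096 and 21.336 FPKM in non-target replicates 1, 2 and 3. GCNT3, a mucin-type glycosyltransferase, had 31.252, 13.438 and 12.901 FPKM in knockout and 205.93, 159.674 and 159.507 FPKM in non-target replicates 1, 2 and 3. SLC7A7, a cationic amino acid transporter subunit, had 7.188, 2.064 and 1.913 FPKM in knockout and 72.411, 42.039 and 43.276 FPKM in non-target replicates. As in CDH17, replicate 1 was the highest of its group for each of the 3 genes. They were picked by their correlation with CDH17 over these libraries, so this likeness is not a separate result.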

How the data were processed

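The authors deposited 1 FPKM value per gene symbol and library. The submitters' processing notes name TopHat2 2.1.1, STAR 2.7.10b and the build hg19. Per the labels' protocols the libraries keep strand (dUTP), but the sources used here do not say whether counting used strand or how shared fragments were assigned.

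Symbols missing from a library were set to 0. Genes below 1 FPKM in more than 3 of the 6 libraries were left out, and 13092 remained. They were tested, two-sided, with limma 3.58.1 (R 4.3.3, trend and robust options) on log2(FPKM + 1). P-values were adjusted by Benjamini-Hochberg over all genes tested, with a threshold of 0.05. This scale understates the change of low genes. The 10 genes, the lists and the rule for naming genes were chosen with earlier results of these data known. All 10 genes are named, and in each list up to 4 genes past the threshold with the largest change and the 2 most abundant. Others are named where a count is given in full, as a known activator of CDH17 or binding partner of EPCAM, or as markers. Some cadherins below the filter are named as examples. These others were chosen after their values were seen. Coordinates and transcript lengths (91% of tested genes matched) are from GENCODE on GRCh37, the build of hg19. Simulated data with known changes were used to check the fit.

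Knockout and non-target libraries of the same number deviated together from their group means, with r of 0.547, 0.309 and 0.331 across genes. All are above 0.1, so a replicate block was run as 1 of the other settings, while the main fit ignores the replicate numbers. The values do not pair replicates 2 and 3 by number, since their r was 0.321 and 0.320 when crossed. By this measure only the replicate 1 libraries paired by number, with r from -0.49 to -0.3575 when crossed with replicates 2 or 3. A replicate block leaves 2 residual degrees of freedom, and 86.4% of genes took their spread wholly from genes of similar level. The other settings were a pseudocount of 0.1, no filter and a mean of at least 5 FPKM, TPM and median-ratio scaling, limma without trend, a replicate block, leaving out libraries, and counting non-target replicates 2 and 3 as 1; removal of a lowess trend on transcript length was added after seeing the data. Fits with fewer libraries used the same genes. Some genes that meet the naming rule and 1 planned ratio are not reported here, though such genes stay in the counts of their lists.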

Additional observations from a re-analysis of the deposited data

How the results depend on the processing

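Of the 10 genes, CDH17 passed in all 16 other settings and CDH1, CDH3, DSC2, DSP, JUP and EPCAM in none. DSG2 passed in 1, PKP2 in 3 and PKP3 in 4. A replicate block changed the call of DSG2, PKP2 and PKP3 and of no other of the 10. The count of the 10 that rose, 0 in the report, was 1 with a replicate block, without both replicate 1 libraries and with the length trend removed, and 0 to 1 without single libraries. The count that fell, 1 in the report, was 3 with a replicate block, 2 without both replicate 1 libraries, and 1 to 2 without single libraries. Of all genes, 1597 in the report, 865 passed with a mean of at least 5 FPKM, 3309 with a replicate block, 944 with non-target replicates 2 and 3 as 1, and 911 to 1970 without single libraries. Without both replicate 1 libraries 2280 of 13092 passed, and with the length trend removed 1878 of 11908. With no filter 1773 of 22496 passed, and the mean filter left 8547 genes to test. The counts of the 10 and of each list were not compared with these all-gene counts, so no move is read as particular to them. Adherens junction partners numbered 1 with the mean filter, 5 with the block, 1 with non-target replicates 2 and 3 as 1, and 1 to 3 without single libraries. Other cadherins numbered 5 with no filter, 0 with the mean filter, 5 with the block, 0 with non-target replicates 2 and 3 as 1, 4 with the length trend removed, and 0 to 2 without single libraries. Other desmosome genes numbered 3 with non-target replicates 2 and 3 as 1 and 3 to 4 without single libraries, where 5 passed in the report. EPCAM partners numbered 6 with the block, 5 without both replicate 1 libraries, and 2 to 5 without single libraries. Repressors numbered 1 with no filter, with the mean filter, with TPM scaling and with non-target replicates 2 and 3 as 1, and 0 to 2 without single libraries. Epithelial factors numbered 4 with the mean filter, which leaves fewer genes. The cause of the other moves was not tested. No named gene that passed in the report reversed in these settings, and the 5 ratios kept their sign. FPKM gives no depth, so counting error is unknown, and values near 1 FPKM, such as DSG3 in knockout or CDH11, are the least certain.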
